A study of Mus musculus with 6 samples.

Results

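The energy buffer genes of skeletal muscle were examined in the hindlimb gastrocnemius (GAS) muscles of Kvβ2 KO and WT mice. The set comprised 9 genes picked by symbol from the 37979 in the table of FPKM (fragment density per kilobase of transcript, relative to library size). These were the creatine kinases *Ckm*, *Ckb* and *Ckmt2*, the creatine transporter *Slc6a8*, the creatine synthesis genes *Gatm* and *Gamt*, the adenylate kinase *Ak1* and the AMP deaminases *Ampd1* and *Ampd3*. All 9 were above 0 in each library and were among the 12334 genes tested, which had a mean of at least 0.5 FPKM. The study compared 3 male WT with 3 male Kvβ2 KO mice, 20 weeks of age and without treatment, with 1 library per mouse and the replicate numbers 1, 7 and 8 in both genotypes, and where 3 values are given for a genotype they stand in that order. The KO mice carried a constitutive null allele of *Kcnab2*, the gene of the potassium channel subunit Kvβ2, and came from crosses of Kvβ2+/- parents, so the deletion was present in every tissue and not only in muscle fibers.

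A contracting muscle fiber can spend ATP faster than mitochondria can replace it. Creatine kinase passes the phosphate of phosphocreatine to ADP and restores ATP, with a mitochondrial form that recharges creatine and cytosolic forms that use it near the myofibrils and pumps. Adenylate kinase makes ATP and AMP from a pair of ADP, and AMP deaminase turns the AMP into IMP, which the purine nucleotide cycle converts back.

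*Kcnab2* was at 0.10 to 0.233 FPKM in WT and at 0 to 0.0151 FPKM in KO muscle, with no overlap (exact permutation test, two-sided, p = 0.1). The KO libraries were estimated to hold 13970000 to 18140000 fragments and the WT libraries 19220000 to 20190000, and the depths of the genotypes did not overlap. Myoglobin (543 to 3150 FPKM) and the fast troponin gene *Tnnc2* (9713 to 14935 FPKM) were abundant in every library, while the fast myosin gene *Myh4* was listed at 0 in all 6, which is no measured absence in this table. WT replicate 8 stood apart in the slow fiber genes, whose summed level was 39.3 FPKM there and 575 to 815 FPKM in the other two WT libraries.

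Across the 9 genes, 0 passed an adjusted p of 0.05 in KO against WT (limma, adjusted p from 0.134 to 0.671), and 2 (*Ckm* and *Ckb*) had an unadjusted p under 0.05. Of all genes tested, 0.324% were called, and an unadjusted p under 0.05 was found for 15.3% in the direction of higher in KO and 10.9% in the direction of lower. Of the 9, 2 had all KO libraries above all WT libraries (*Ckm* and *Ckb*), against 18.3% of all genes tested, and 1 had all KO libraries below (*Ampd1*), against 16.2%. These shares are near the background, so the counts say nothing particular about the set. With array weights, limma called *Ckm* and *Ckb*, where 25.5% of all genes tested were called. The median log2 fold change, given here as KO minus WT on the scale of log2(FPKM + 0.1), was 0.22 over the 9 genes and 0.010 over all genes tested. With each library corrected for the GC content of the genes, the median of the 9 was -0.075 and that of all genes 0.0035. This correction bears on each value that follows, since log2 fold changes were higher for genes of higher GC content (Spearman's rho = 0.70, across genes that are not independent replicates). The plot of fold changes sets both values of each gene side by side.

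**Figure D1:**
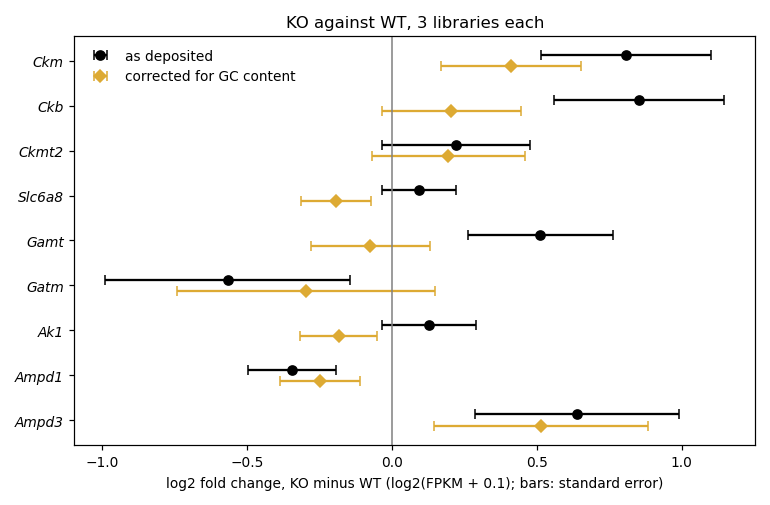
Log2 fold change of each gene, KO minus WT on log2(FPKM + 0.1), with bars for the standard error, as deposited (circles) and after correction for GC content (diamonds). *Ckm* and *Ckb* lie farthest to the right as deposited, at 0.81 and 0.85, and *Slc6a8*, *Gamt* and *Ak1* cross 0 with the correction.

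The levels spanned more than 3 orders of magnitude per unit of transcript length. In WT muscle *Ckm* was highest, followed by *Ampd1*, *Ak1*, *Ckmt2*, *Slc6a8*, *Gamt*, *Gatm*, *Ampd3* and *Ckb*. Neighbors in this order were separate in all WT libraries, except that *Ak1* overlapped with *Ckmt2* and *Ampd3* with *Ckb*. In KO muscle *Ckmt2* and *Ak1* were in the opposite order of means, and *Ampd1*, *Ckmt2* and *Ak1* overlapped with their neighbors, as did *Gatm*, *Ampd3* and *Ckb*. The plot of FPKM by library shows all values.

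**Figure D2:**
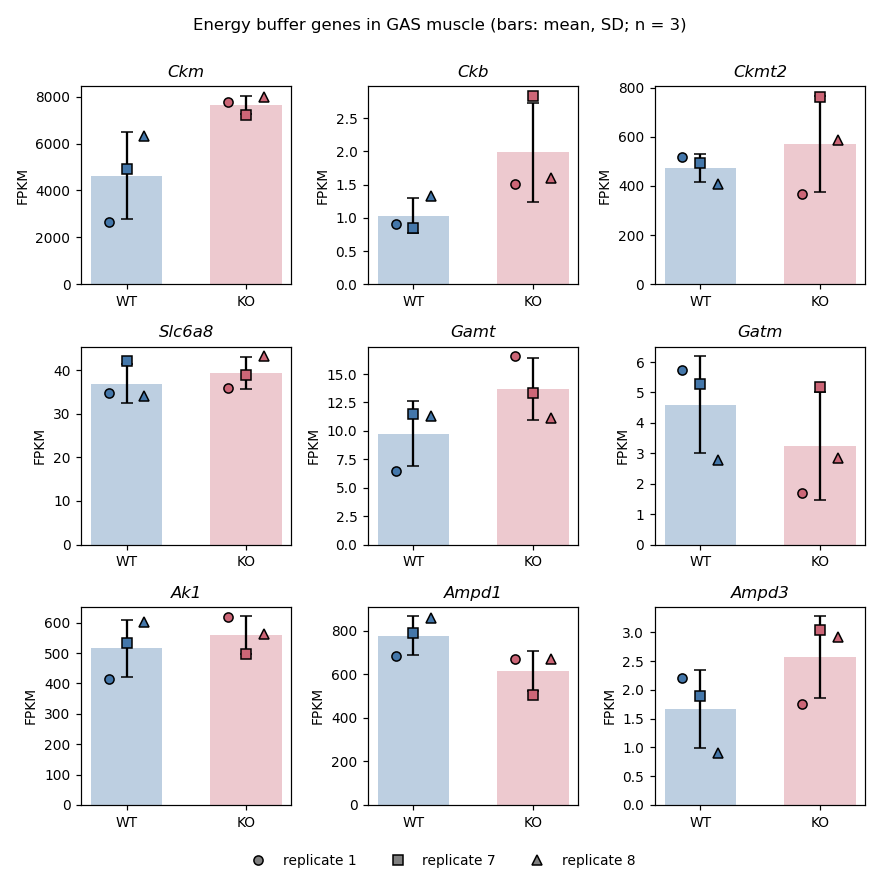
FPKM of the 9 genes in each library, with a panel and a linear axis from 0 for each gene. Bars show the mean and whiskers the SD of 3 libraries, and the symbols mark replicates 1, 7 and 8. The KO libraries are all above the WT libraries for *Ckm* and *Ckb* and all below them for *Ampd1*, and the genotypes overlap for the other 6 genes.

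The promoters of the 3 creatine kinase genes are shown because *Ckm* and *Ckb*, paralogs at opposite ends of the range of levels, were both higher in every KO library, whereas *Ckmt2* overlapped. The sequences are those of RefSeq on GRCm38.p6, from 250 bases before to 50 after the annotated start, and 7 of the 9 genes had such an entry. *Ckm* is at chr7:19410844-19411143 on the plus strand, *Ckb* at chr12:111672289-111672588 on the minus strand and *Ckmt2* at chr13:91876836-91877135 on the minus strand. Capitals mark matches, on either strand, to the E box (letters CANNTG), the TATA element (letters TATANA), the box with letters CCAAT, or the MEF2 core (which starts with CTA and ends with TAG around 4 free bases).
Ckm: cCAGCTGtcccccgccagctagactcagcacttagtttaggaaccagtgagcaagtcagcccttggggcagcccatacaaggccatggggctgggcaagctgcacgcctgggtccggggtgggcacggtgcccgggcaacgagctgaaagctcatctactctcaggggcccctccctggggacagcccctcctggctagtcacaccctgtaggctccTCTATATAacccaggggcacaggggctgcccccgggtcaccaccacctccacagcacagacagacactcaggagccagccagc
Ckb: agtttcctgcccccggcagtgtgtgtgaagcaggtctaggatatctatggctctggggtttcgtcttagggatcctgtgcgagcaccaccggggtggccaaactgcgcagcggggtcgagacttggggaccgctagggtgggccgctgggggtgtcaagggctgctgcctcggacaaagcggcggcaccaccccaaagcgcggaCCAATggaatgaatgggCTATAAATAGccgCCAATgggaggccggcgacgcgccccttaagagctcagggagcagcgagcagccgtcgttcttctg
Ckmt2: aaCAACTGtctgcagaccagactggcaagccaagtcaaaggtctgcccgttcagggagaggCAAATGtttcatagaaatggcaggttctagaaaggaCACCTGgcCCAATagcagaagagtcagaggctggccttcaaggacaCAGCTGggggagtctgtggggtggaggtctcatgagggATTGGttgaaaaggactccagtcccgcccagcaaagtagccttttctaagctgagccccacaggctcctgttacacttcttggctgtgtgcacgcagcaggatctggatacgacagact

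The *Ckm* window held 1 E box, at its far end, and overlapping TATA matches from 33 bases before the start. The *Ckb* window held 0 E boxes, 2 CCAAT boxes and a MEF2 core at 29 bases before the start that overlaps its TATA match. The *Ckmt2* window held 4 E boxes, 2 CCAAT boxes and 0 TATA matches. Among the 32851 promoter windows of the table, 72.3% held an E box, 24.7% a TATA element, 37.4% a CCAAT box and 3.69% a MEF2 core. The GC content was 64.7% for *Ckm*, 63% for *Ckb* and 53.7% for *Ckmt2*, with a median of 52.7% over all windows. These matches describe letters and say nothing of binding, which was not measured here.

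*Ckm* (ENSMUSG00000030399, chromosome 7, 19404776 to 19422841 of GRCm38) encodes the muscle creatine kinase that sits at the M band and in the cytosol of the fiber. It measured 2675, 4931 and 6307 FPKM in WT and 7765, 7203 and 7971 FPKM in KO muscle. The KO libraries lay close together and above all WT libraries, and the WT libraries were spread, with replicate 1 far below the others. The WT mean was 4637 ± 1834 FPKM (SD, n = 3) and the KO mean 7646 ± 398 FPKM (SD, n = 3), with a ratio of 1.65. The log2 fold change was 0.81 (standard error 0.29, limma, adjusted p = 0.148), and the range within the WT libraries was 1.24 on the same scale. The exact permutation test, two-sided, gave p = 0.1, the smallest p that 3 against 3 allow. Without WT replicate 1 the log2 fold change was 0.45, and with correction for GC content it was 0.41 (standard error 0.24). As a share of the summed FPKM of a library, *Ckm* made up 0.699% to 1.57% in WT and 1.65% to 1.67% in KO muscle.

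The actin gene *Acta1*, the main actin of adult skeletal muscle, measured 5029, 8435 and 9656 FPKM in WT and 12045, 13917 and 13703 FPKM in KO muscle. As for *Ckm*, WT replicate 1 was lowest and no KO library overlapped with a WT library. The ratio of *Ckm* to *Acta1*, a comparison chosen after the values were seen, was 0.532 to 0.653 in WT and 0.518 to 0.645 in KO muscle (log2 difference -0.022, exact permutation test, two-sided, p = 0.7). The 8 skeletal muscle markers, *Acta1* included, summed to 29412 to 41621 FPKM in WT and 42142 to 46070 FPKM in KO muscle. Of the 7 that were tested 0 passed, and 6 had a higher and 1 a lower mean log2 value in KO muscle. *Acta1*, *Des* and *Myh2* were higher in every KO library. *Tnnc2*, *Mb*, *Myh1* and *Mylpf* overlapped, with *Mylpf* at 11347 to 15705 FPKM in WT and 10968 to 16044 FPKM in KO muscle. The part of these markers in the difference of *Ckm* was not tested.

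*Ckb* (ENSMUSG00000001270, chromosome 12, 111669361 to 111672338) encodes the brain form of the cytosolic enzyme, also found in smooth muscle and nerve. It measured 0.910, 0.845 and 1.33 FPKM in WT and 1.51, 2.84 and 1.59 FPKM in KO muscle. The KO libraries were all above the WT libraries, by a narrow margin between KO replicate 1 and WT replicate 8, and KO replicate 7 stood out. The means were 1.03 ± 0.262 FPKM (SD, n = 3) and 1.98 ± 0.741 FPKM (SD, n = 3). The log2 fold change was 0.85 (standard error 0.29, limma, adjusted p = 0.134). This value was 0.58 without KO replicate 7 and 0.21 (standard error 0.24) with correction for GC content, the GC content of *Ckb* being 61.8%. These levels rest on an estimated 24 to 76 fragments per library, and *Ckm* was 2539 to 5837 times higher in the same libraries. How fragments were divided between the paralogs was not tested.

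Smooth muscle and adipocyte markers were set beside *Ckb*. The 4 smooth muscle markers summed to 19.7 to 24.6 FPKM in WT and 30.4 to 50.8 FPKM in KO muscle, and the 5 adipocyte markers to 7.35 to 34.8 FPKM and 44.3 to 168 FPKM. Like *Ckb*, both sums were highest in KO replicate 7, as were the sums of nerve and Schwann cell, endothelium and macrophage markers. Within WT both sums were highest in replicate 1, whereas *Ckb* was highest in replicate 8. The sum of red blood cell markers was also higher in every KO library than in every WT library. Of the markers tested, 3 of 4 for smooth muscle and 5 of 5 for adipocytes, all had a higher mean in KO muscle and 0 passed. The adipocyte markers *Adipoq* and *Lep* and the smooth muscle marker *Cnn1* overlapped between the genotypes. The other markers of both types were higher in every KO library. The 6 nerve and Schwann cell markers overlapped, at 28.2 to 104 FPKM in WT and 32.0 to 134 FPKM in KO muscle. In whole muscle, more cells of a type and more RNA per cell cannot be told apart, and the part of these cells in the *Ckb* difference was not tested.

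**Figure D3:**
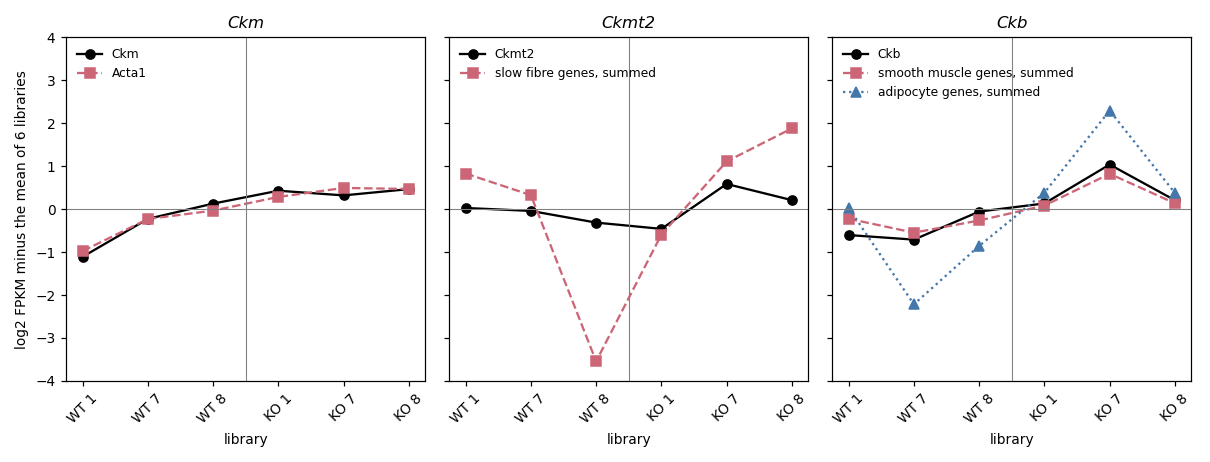
Log2 FPKM of each series minus its mean over the 6 libraries, by library, for *Ckm* with *Acta1*, *Ckmt2* with the summed slow fiber genes, and *Ckb* with the summed smooth muscle and adipocyte genes. *Ckm* and *Acta1* are lowest in WT replicate 1, the slow fiber genes drop to 39.3 FPKM in WT replicate 8, and *Ckb* and both of its marker sums are highest in KO replicate 7.

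*Ckmt2* (ENSMUSG00000021622, chromosome 13, 91853387 to 91876885) encodes the sarcomeric mitochondrial creatine kinase of the intermembrane space. It measured 516, 492 and 408 FPKM in WT and 368, 760 and 586 FPKM in KO muscle. The KO libraries held both the lowest and the highest value and enclosed all WT libraries. The log2 fold change of 0.22 (standard error 0.25, limma, adjusted p = 0.605) was well under the range within KO muscle, which was 1.04. This fold change was -0.016 without KO replicate 7 and 0.19 with correction for GC content. The 7 slow fiber markers, which overlapped as well, summed to 815, 575 and 39.3 FPKM in WT and 304, 990 and 1687 FPKM in KO muscle. In both genotypes the library with the lowest slow fiber sum was also the lowest in *Ckmt2*. Within WT the whole order was the same for both. In KO muscle it was not, with the slow fiber sum highest in replicate 8 and *Ckmt2* in replicate 7. KO replicate 1 had a higher slow fiber sum than WT replicate 8 (304 against 39.3 FPKM) but less *Ckmt2* (368 against 408 FPKM). The part of fiber composition in *Ckmt2* was not tested.

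Within each library, log2 ratios of these genes were compared as well, with p adjusted over 5 ratios. The ratio of *Ckm* to *Ckmt2* was 5.18 to 15.5 in WT and 9.47 to 21.1 in KO muscle and overlapped (log2 difference 0.59, exact permutation test, p = 0.5, adjusted p = 0.625). This difference ranged from 0.16 (without WT replicate 1) to 0.95 (without WT replicate 8) with a library left out, and was 0.22 with correction for GC content. The ratio of *Ckm* to *Ckb* overlapped too (log2 difference -0.046, exact permutation test, p = 0.8, adjusted p = 0.8). The ratio of *Ckm* to *Ak1* did not overlap, at 6.47, 9.26 and 10.5 in the WT and 12.5, 14.5 and 14.2 in the KO replicates. Its log2 difference of 0.68 (exact permutation test, two-sided, p = 0.1, adjusted p = 0.5) was 0.59 with correction for GC content. This ratio was thus higher in every KO than in every WT library, at the smallest p the design allows and without passing the threshold.

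*Slc6a8* (ENSMUSG00000019558, chromosome X, 73673150 to 73682502) encodes the transporter through which muscle takes up creatine from blood. It measured 34.8, 42.0 and 34.0 FPKM in WT and 35.8, 38.8 and 43.2 FPKM in KO muscle. The libraries of the genotypes were interleaved, and the log2 fold change was 0.092 (standard error 0.13, limma, adjusted p = 0.671) and -0.19 with correction for GC content. It had the smallest standard error of the set, with a range of 0.30 in WT and 0.27 in KO muscle on the log2 scale.

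*Gatm* (ENSMUSG00000027199, chromosome 2, 122594467 to 122611303) encodes the enzyme that forms guanidinoacetate, and *Gamt* (ENSMUSG00000020150, chromosome 10, 80258151 to 80261012) the methyltransferase that turns it into creatine. Creatine synthesis is best known from kidney, pancreas and liver. *Gatm* measured 5.75, 5.28 and 2.77 FPKM in WT and 1.69, 5.18 and 2.84 FPKM in KO muscle (log2 fold change -0.57, standard error 0.42, limma, adjusted p = 0.420). The ranges of 1.03 within WT and 1.56 within KO muscle were larger than this difference, which ranged from -0.97 (without KO replicate 7) to -0.19 (without KO replicate 1) with a library left out and was -0.30 with correction for GC content. *Gamt* measured 6.45, 11.5 and 11.3 FPKM in WT and 16.6, 13.3 and 11.1 FPKM in KO muscle (log2 fold change 0.51, standard error 0.25, limma, adjusted p = 0.236). KO replicate 8 was under WT replicates 7 and 8, and the value was 0.24 without WT replicate 1 and -0.075 with correction for GC content. The ratio of *Gamt* to *Gatm* was 1.12 to 4.08 in WT and 2.57 to 9.82 in KO muscle and overlapped (log2 difference 1.08, exact permutation test, p = 0.3, adjusted p = 0.5), and its log2 difference was 0.22 with correction for GC content.

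*Ak1* (ENSMUSG00000026817, chromosome 2, 32621758 to 32635058), the main cytosolic adenylate kinase of muscle, measured 414, 532 and 601 FPKM in WT and 619, 495 and 563 FPKM in KO muscle. WT replicate 1 was lowest and the other 5 libraries were mixed. The log2 fold change was 0.13 (standard error 0.16, limma, adjusted p = 0.643). It was -0.022 without WT replicate 1 and -0.18 with correction for GC content.

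*Ampd1* (ENSMUSG00000070385, chromosome 3, 103074014 to 103099720) encodes the AMP deaminase of skeletal muscle, most abundant in fast fibers. It measured 684, 792 and 860 FPKM in WT and 668, 507 and 671 FPKM in KO muscle. The genotypes did not overlap, with KO muscle lower, but the gap was narrow, from 671 FPKM in KO replicate 8 to 684 FPKM in WT replicate 1. The WT mean was 779 ± 88.4 FPKM (SD, n = 3) and the KO mean 616 ± 93.9 FPKM (SD, n = 3), with a ratio of 0.791. The log2 fold change was -0.34 (standard error 0.15, limma, adjusted p = 0.202), -0.25 with correction for GC content, and between -0.43 and -0.21 with each library left out.

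*Ampd3* (ENSMUSG00000005686, chromosome 7, 110768206 to 110812405), the form known from red blood cells, measured 2.21, 1.90 and 0.907 FPKM in WT and 1.75, 3.04 and 2.92 FPKM in KO muscle. WT replicate 8 was lowest and KO replicate 1 lay among the WT libraries. The log2 fold change was 0.64 (standard error 0.35, limma, adjusted p = 0.283). It was 0.27 without WT replicate 8 and 0.52 with correction for GC content. Red blood cell markers, 3 of 5 listed being in the table, summed to 64.9 to 98.2 FPKM in WT and 113 to 228 FPKM in KO muscle. All 3 had a higher mean in KO muscle and 0 passed, and *Alas2* among them overlapped between the genotypes. WT replicate 8, the lowest library in *Ampd3*, had the highest sum of these markers in WT muscle, at 98.2 FPKM. The part of red blood cells in *Ampd3* was not tested. The ratio of *Ampd1* to *Ampd3* was 310 to 948 in WT and 167 to 382 in KO muscle and overlapped (log2 difference -0.98, exact permutation test, p = 0.2, adjusted p = 0.5). Its log2 difference ranged from -1.31 (without WT replicate 1) to -0.54 (without WT replicate 8) with a library left out. With correction for GC content it was -0.76. The deaminase transcripts were per unit of length almost all *Ampd1* in both genotypes. The third deaminase gene, *Ampd2*, was at 1.05 to 2.40 FPKM in WT and 1.55 to 2.98 FPKM in KO muscle.

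AMP deaminase opens the purine nucleotide cycle, which adenylosuccinate synthetase and adenylosuccinate lyase complete. Those genes were looked at after their values were seen. *Adssl1*, the muscle synthetase, measured 283, 295 and 341 FPKM in WT and 437, 392 and 431 FPKM in KO muscle (log2 fold change 0.46, standard error 0.11, limma, adjusted p = 0.0819). *Adsl*, the lyase, measured 42.1, 50.7 and 51.9 FPKM in WT and 62.4, 63.1 and 68.1 FPKM in KO muscle (log2 fold change 0.42, standard error 0.12, limma, adjusted p = 0.0954). For both genes the KO libraries were all above the WT libraries, opposite to *Ampd1*. The ratio of *Ampd1* to *Adssl1* was 2.42, 2.69 and 2.52 in the WT and 1.53, 1.29 and 1.56 in the KO replicates, a log2 difference of -0.80 (exact permutation test, two-sided, p = 0.1). Since both genes separated by genotype, in opposite directions, their ratio had to separate and the test could only give its smallest p. The ratio thus adds no evidence to the values of each gene. The correction for GC content moved the log2 difference of the ratio to -0.31 and the log2 fold changes to 0.066 for *Adssl1* and 0.26 for *Adsl*. The non-muscle synthetase gene *Adss* went the other way from *Adssl1*, at 5.71 to 7.07 FPKM in WT and 4.33 to 4.92 FPKM in KO muscle (log2 fold change -0.44, standard error 0.13, limma, adjusted p = 0.103), and its log2 fold change was -0.13 with the correction.

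**Figure D4:**
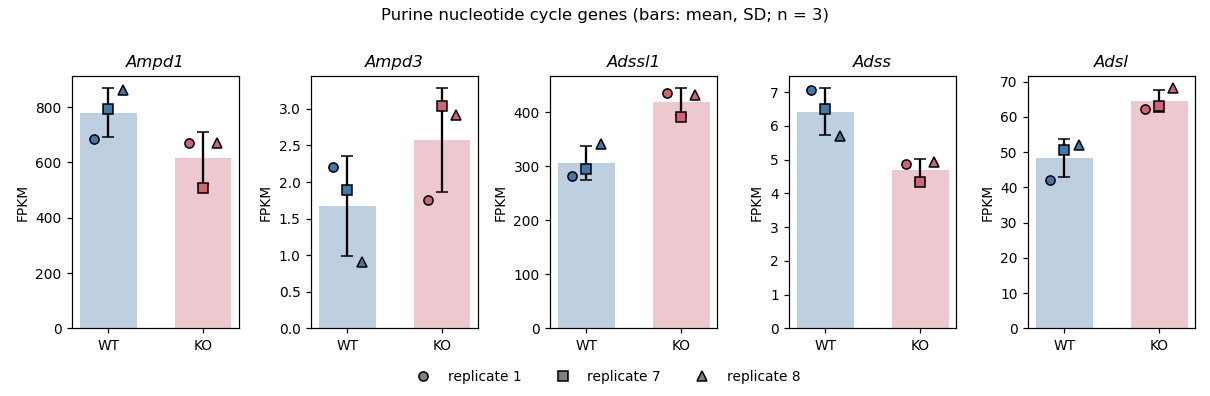
FPKM of purine nucleotide cycle genes in each library, with bars for the mean and whiskers for the SD of 3 libraries and symbols for replicates 1, 7 and 8. The KO libraries are below the WT libraries for *Ampd1* and *Adss* and above them for *Adssl1* and *Adsl*, and *Ampd3* overlaps.

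The list of the purine nucleotide cycle, salvage and breakdown held 24 tested genes. Of these, 0 were called, 19 had a higher and 5 a lower mean log2 value in KO muscle, 8 had all KO libraries above and 4 had all KO libraries below the WT libraries. Of all genes tested, 0.324% were called, 51.0% had a higher mean log2 value in KO muscle, 18.3% had all KO libraries above and 16.2% all below. The list exceeded the shares for higher in KO muscle. It was chosen with earlier results of these data known, so its counts were not tested against these shares. The median log2 fold change of the list was 0.27, and 0.10 with correction for GC content. *Impdh1*, which commits IMP to guanine nucleotides, was at 2.81 to 3.14 FPKM in WT and 4.49 to 4.88 FPKM in KO muscle (log2 fold change 0.65, standard error 0.12, limma, adjusted p = 0.0667). *Aprt*, which salvages adenine, was at 4.18 to 6.51 FPKM in WT and 7.44 to 10.9 FPKM in KO muscle (log2 fold change 0.86, standard error 0.21, limma, adjusted p = 0.0785). With GC content corrected for, the values were 0.14 and 0.31. *Nt5c3*, a nucleotidase, was at 43.3 to 51.1 FPKM in WT and 30.4 to 39.3 FPKM in KO muscle (log2 fold change -0.38, standard error 0.13, limma, adjusted p = 0.139), and its log2 fold change was -0.11 with the correction.

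Of the other nucleoside phosphate kinases 8 were tested and 0 called, where 0.324% of all genes tested were called. There were 4 genes on each side of 0, and the median log2 fold change of 0.076 turned to -0.17 with correction for GC content. *Nme3*, a nucleoside diphosphate kinase, was at 3.58 to 4.06 FPKM in WT and 4.97 to 6.18 FPKM in KO muscle (log2 fold change 0.52, limma, adjusted p = 0.0809), and its log2 fold change was -0.017 with correction for GC content. *Ak3*, an adenylate kinase of the mitochondrial matrix, was at 34.4 to 39.5 FPKM in WT and 28.0 to 34.0 FPKM in KO muscle (log2 fold change -0.28, limma, adjusted p = 0.185). *Nme1* overlapped (log2 fold change -0.23, limma, adjusted p = 0.652). Corrected values were -0.18 for *Ak3* and -0.29 for *Nme1*.

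De novo purine synthesis had 9 tested genes and 0 calls, against 0.324% called of all genes tested. Its median log2 fold change was -0.073, and -0.023 with correction for GC content. Of the 9 genes, 0 had all KO libraries above and 3 had all KO libraries below the WT libraries. The shares of all genes tested were 18.3% and 16.2%. *Paics*, an enzyme in the middle of the pathway, was at 61.2 to 65.3 FPKM in WT and 44.4 to 53.8 FPKM in KO muscle (log2 fold change -0.33, limma, adjusted p = 0.1296). *Prps1*, which makes the ribose donor, was at 23.6 to 24.9 FPKM in WT and 18.4 to 20.7 FPKM in KO muscle (log2 fold change -0.30, limma, adjusted p = 0.135). *Gart* and *Pfas* overlapped between the genotypes, with log2 fold changes of 0.25 and 0.16 (limma, adjusted p = 0.255 and 0.440). With the correction the log2 fold changes were -0.22 for *Paics*, -0.14 for *Prps1* and 0.14 for *Gart*, and that of *Pfas* turned to -0.023.

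Finally, genes with the most similar profile were listed for 4 of the genes, by the root mean square distance between log2 values centered on their means, over 6 libraries and 6080 candidate genes. For *Ckm* these were *Sync*, *Gaa* and *Hhatl*, at distances of 0.083, 0.087 and 0.091, where *Ckm* itself varied by 0.55. For *Ckb* they were *Atp9a*, *Clec3b* and *Nbl1*, at 0.084, 0.12 and 0.15, with 0.54 for *Ckb* itself. For *Ckmt2* they were *H2-Eb1*, *Sirt4* and *Got1*, at 0.072, 0.089 and 0.095, with 0.34 for *Ckmt2*, and for *Ampd1* they were *Uspl1*, *Ccdc50* and *Capza2*, at 0.035, 0.037 and 0.042, with 0.24 for *Ampd1*. With 6 libraries and this many candidates such near matches carry no test.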

How the data were processed

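RNA of GAS muscles from 3 WT and 3 Kvβ2 KO mice was sequenced with 1 library per mouse from stranded mRNA libraries read from both ends. Per the labels and the methods of the study, the authors mapped reads to GRCm38 with TopHat and deposited FPKM values computed with Cufflinks. Versions and the annotation release are not given in the sources used here. FPKM carry no counts, so depth was estimated from the steps of whole fragments in low values of genes with 1 transcript of 1500 to 6000 bases (90.7% to 93.8% within 0.15 of a whole fragment). The labels do not say whether libraries were prepared together.

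The test was limma (version 3.58.1, R version 4.3.3) with a variance trend, applied to log2(FPKM + 0.1) of all genes whose mean reached 0.5 FPKM, and Benjamini-Hochberg adjustment over all 12334 genes. Single values were compared with exact permutation tests, two-sided. GC content and coordinates came from GENCODE vM21 on GRCm38. For the GC correction, a loess curve (span 0.3) through each library's deviations from the gene means was subtracted. On simulated data of 11775 genes, limma recovered 39% of genes changed 2-fold and 89% of those changed 4-fold, with 2 false calls. These data held no GC trend. With a simulated GC trend there were 91 false calls, and 2 after the correction. That trend was the same in every KO library and followed GC content alone, so the correction was bound to remove it. The result does not show how well the correction acts on the real libraries. Promoters came from RefSeq.

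The members, the gene lists and the tests were chosen with earlier results of these data known. Named beyond the members are the 2 genes with the lowest unadjusted p in each direction of each list and the 3 nearest profiles of 4 members. A gene that this rule names is not reported here. *Adssl1*, *Adsl*, *Ampd2*, *Acta1* and *Ckmt1* were added after values were seen. Figures were drawn with matplotlib 3.10.9.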

Additional observations from a re-analysis of the deposited data

How the results depend on the processing

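With each library left out, 15 to 126 genes were called, against 40 in all 6 libraries, with 126 without WT replicate 8 and 15 to 19 without any other library. Other settings gave 11 (pseudocount of 1), 20 (no filter on low FPKM), 1 (only genes above 0 in every library), 24 (same median), 19 (same upper quartile), 19 (no variance trend), 14 (correction for GC content) and 3147 (array weights). The count was 40 with a pseudocount of 0.01 and 40 with a filter at a mean of 1 FPKM. It was 42 with a robust variance trend and 28 with correction for exonic length. The replicate block gave 13, and 12 with the correction for GC content. Same-numbered libraries did not deviate together (correlations of -0.025, -0.080 and 0.034), so the numbers were not treated as pairs.

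Members called stayed at 0 except under array weights, which called 2 of the 9 (*Ckm*, limma, adjusted p = 0.0275, and *Ckb*, limma, adjusted p = 0.0244). Array weights also called 17 of the 41 tested genes of the pathway lists and 25.5% of all genes tested. Over the 20 alternatives, adjusted p ranged from 0.0275 to 0.638 for *Ckm* and from 0.0244 to 0.832 for *Ckb*. The correction for GC content moved the median of the 9 genes to -0.075, and turned *Slc6a8* to -0.19, *Gamt* to -0.075 and *Ak1* to -0.18, with and without the replicate block. Leaving out 1 library turned *Ckmt2* (-0.016 without KO replicate 7, range to 0.51) and *Ak1* (-0.022 without WT replicate 1, range to 0.25). The ratio of *Ckm* to *Ckb* turned to 0.27 with a pseudocount of 1 and 0.21 with the GC correction, and ranged from -0.33 (without WT replicate 1) to 0.27 (without KO replicate 7) with a library left out. That of *Ckm* to *Acta1* turned to 0.056 with the GC correction and ranged from -0.099 to 0.059 with a library left out. Of 180 repeats of the 9 fold changes, 170 kept direction and side of the threshold. The cause of these shifts was not tested. Depth limits *Ckb* most, at 24 to 76 estimated fragments.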

Other observations

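Of the listed purine and kinase genes, 7 were under the filter on low FPKM and were not tested. The ubiquitous mitochondrial creatine kinase gene *Ckmt1* was among them. Its level was 0.106 FPKM in WT replicate 1, 0.178 FPKM in WT replicate 7 and 0.348 FPKM in KO replicate 7, and it was listed at 0 in WT replicate 8 and KO replicates 1 and 8. A value of 0 in this table is no measured absence.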
